A study of Mus musculus with 18 samples.

Results

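The comparison concerns 11 of 18 mouse mammary tumors, split by how much of their RNA came from milk protein genes. Tumors were kept as epithelial when Epcam, a surface protein of epithelial cells, reached at least 180 CPM (counts scaled to a common library size), which 13 of the 18 did. The milk share is the percentage of all expected counts of a tumor that belonged to 8 milk protein genes (Csn1s1, Csn1s2a, Csn1s2b, Csn2, Csn3, Wap, Lalba and Glycam1). The members were chosen by these measured values, the Epcam level and the milk share. A tumor was milk-rich at a share of 5% or more, which held for 5 tumors, and milk-poor under 1%, which held for 6. The 2 epithelial tumors in between and the 5 tumors with less Epcam entered neither set.

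All 18 were spontaneous tumors of the mammary gland, each from a different mouse per the series design, untreated, and profiled by bulk RNA sequencing of freshly isolated tissue. Every genotype label reads MMTV-Cre(+) and Pikca(H1047R, het), the labels' spelling of Pik3ca, so all tumors shared a Cre recombinase under the mouse mammary tumor virus promoter, which is active mainly in mammary epithelium, and 1 allele of the activated PI3K catalytic subunit. The labels differ in Cbfb, a partner of the RUNX transcription factors: the milk-rich set held 4 Cbfb(het) and 1 Cbfb(wt) tumor, and the milk-poor set 4 Cbfb(het), 1 Cbfb(wt) and 1 Cbfb(homo) tumor. The labels give no age, batch, litter or reproductive state of the mice, so none of these could be set against the milk share. Among all 18 tumors, Cbfb(het) 10 and Cbfb(het) 14 were far more alike than any other pair, with a chi-square per gene of 4.18 between their counts against 85.9 for the next pair. Both had little Epcam and entered neither set. Whether these 2 samples share a source was not tested. In bulk tumors, a larger number of milk-producing cells and more milk RNA in each such cell cannot be told apart. Both sets carried the epithelial keratins: Krt8 ranged over 692 to 1466 CPM in the milk-rich and 484 to 1388 CPM in the milk-poor tumors.

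Milk proteins are made by the alveolar cells of the mammary gland in late pregnancy and lactation. Prolactin binds its receptor, which activates the kinase JAK2. JAK2 phosphorylates STAT5A and STAT5B, and these enter the nucleus and bind paired TTC and GAA half-sites near casein and other milk genes, while the ETS factor ELF5 drives the alveolar fate together with STAT5. The same cells raise fatty acid and triglyceride synthesis, package fat droplets into milk fat globules wrapped in plasma membrane, and pump calcium and other ions into the Golgi and the milk.

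The 5 casein genes lie together on chromosome 5 (GRCm38; Csn1s1 starts at 87666208 and Csn3 ends at 87932665), Wap lies on chromosome 11, and Lalba and Glycam1 lie on chromosome 15. The STAT5 half-site pair TTCNNNGAA, which reads the same on both strands, was searched in the 250 bases before each RefSeq start (GRCm38.p6). Of the 8 milk genes 6 had a window, and 3 of these held the pair. The sequences below are shown because they belong to the genes whose RNA defines the sets. They run 5′ to 3′ on the gene's own strand, and capitals mark the half-site pair. The Csn2 stretch is chr5:87699500-87699528 on the minus strand, with the pair at 93 to 85 bases before the start, and is kept short because an alternative GENCODE transcript begins farther upstream. The others are the full windows of Csn1s1 (chr5:87665958-87666207, plus strand), Glycam1 (chr15:103565082-103565331, minus strand) and Wap (chr11:6638650-6638899, minus strand).
Csn2: tcacgtagacTTCTTGGAAttgaagggac
Csn1s1: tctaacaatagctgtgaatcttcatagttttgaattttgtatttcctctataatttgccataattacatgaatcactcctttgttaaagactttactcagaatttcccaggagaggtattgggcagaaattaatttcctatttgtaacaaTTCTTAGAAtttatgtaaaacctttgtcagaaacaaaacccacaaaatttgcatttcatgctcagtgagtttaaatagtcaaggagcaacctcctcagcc
Glycam1: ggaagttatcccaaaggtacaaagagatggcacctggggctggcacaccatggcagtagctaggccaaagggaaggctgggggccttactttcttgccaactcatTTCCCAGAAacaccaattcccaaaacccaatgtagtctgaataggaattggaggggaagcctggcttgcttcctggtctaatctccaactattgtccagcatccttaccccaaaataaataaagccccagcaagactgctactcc
Wap: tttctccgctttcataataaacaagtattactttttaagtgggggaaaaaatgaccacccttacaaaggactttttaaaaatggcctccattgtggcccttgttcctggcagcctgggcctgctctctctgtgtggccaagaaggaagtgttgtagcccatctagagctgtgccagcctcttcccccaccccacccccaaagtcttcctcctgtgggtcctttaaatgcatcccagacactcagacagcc
The pair stands at 100 to 92 bases before the start of Csn1s1 and at 145 to 137 bases before that of Glycam1, and the Wap window holds none. The pair was in at least 1 window of 8.13% of all genes with a RefSeq promoter. It was found in 11 of the 140 matched genes called higher in milk-rich tumors (7.86%), in 2 of the 37 matched genes called lower (5.41%), and in 886 of the 12082 matched genes among all tested (7.33%). A match is only a string of letters, and its absence says nothing about sites outside these 250 bases.

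The milk share was 14.9% in Cbfb(het) 8, 13.04% in Cbfb(het) 2, 11.02% in Cbfb(het) 4, 7.59% in Cbfb(het) 6 and 5.94% in Cbfb(wt) 3. These values chose the sets and are given as a description. In the milk-poor tumors it was 0.772% in Cbfb(het) 9, 0.751% in Cbfb(het) 13, 0.496% in Cbfb(het) 5, 0.179% in Cbfb(wt) 1, 0.136% in Cbfb(homo) 1 and 0.109% in Cbfb(het) 11. The tumors in between, Cbfb(het) 3 and Cbfb(het) 7, stood at 2.23% and 2.21%. No tumor lay close to the limit at 5% from below, while the highest milk-poor tumor lay nearer to its own limit of 1%. Epcam ranged over 504 to 641 CPM in the milk-rich set and 344 to 750.0 CPM in the milk-poor set. The lowest tumor kept for Epcam was Cbfb(homo) 1 at 344 CPM and the highest left out was Cbfb(het) 12 at 120.2 CPM.

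The makeup of the milk RNA is given as a description, because its 8 genes are those whose sum chose the sets. Csn2 was the largest part of that sum in every milk-rich tumor. A rule on the sum therefore also tends to sort tumors by their Csn2 part, and so by the parts left to the other genes. Whether the makeup differed apart from the rule was not tested. Csn2, the beta-casein gene, held 36.6% to 48.8% of the milk counts in milk-rich tumors and a median of 10.6% (0.697% to 32.5%) in milk-poor tumors. Csn3, kappa-casein, which keeps casein micelles stable, held 5.38% to 13.96% of milk counts in the milk-rich and a median of 40.7% (16.5% to 76.4%) in the milk-poor set. Csn1s1, an alpha-casein, was also a larger part of the small milk pool of milk-poor tumors, with a median of 41.4% against 21.3%. In the intermediate tumors Cbfb(het) 3 and Cbfb(het) 7, Csn2 held 34.57% and 42.03% of milk counts and Csn3 13.55% and 12.03%. These lay within or close to the milk-rich ranges. Csn1s1 held 27.997% and 30.94% there, between the medians of the sets. Wap, the whey acidic protein gene that is a late marker of alveolar differentiation, reached 7168, 3603, 3252, 1029 and 268 CPM in the 5 milk-rich tumors in the order of falling milk share. In milk-poor tumors Wap lay between 0.596 and 13.2 CPM, with a median of 7.87. Csn2 ran from 27806 to 54987 CPM in the milk-rich and from 12.5 to 2442 CPM in the milk-poor set. Both genes are part of the sum that set the groups, so their lack of overlap is largely fixed by the rule. Within the milk-rich set Csn2 spanned a narrower relative range than Wap. Lalba, which makes the lactose synthase complex with B4galt1, lay at 434 to 800 CPM against 5.05 to 47.3 CPM. Glycam1 reached 14746 CPM in Cbfb(het) 8 and was at 0 counts in Cbfb(het) 11.

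**Figure D1:**
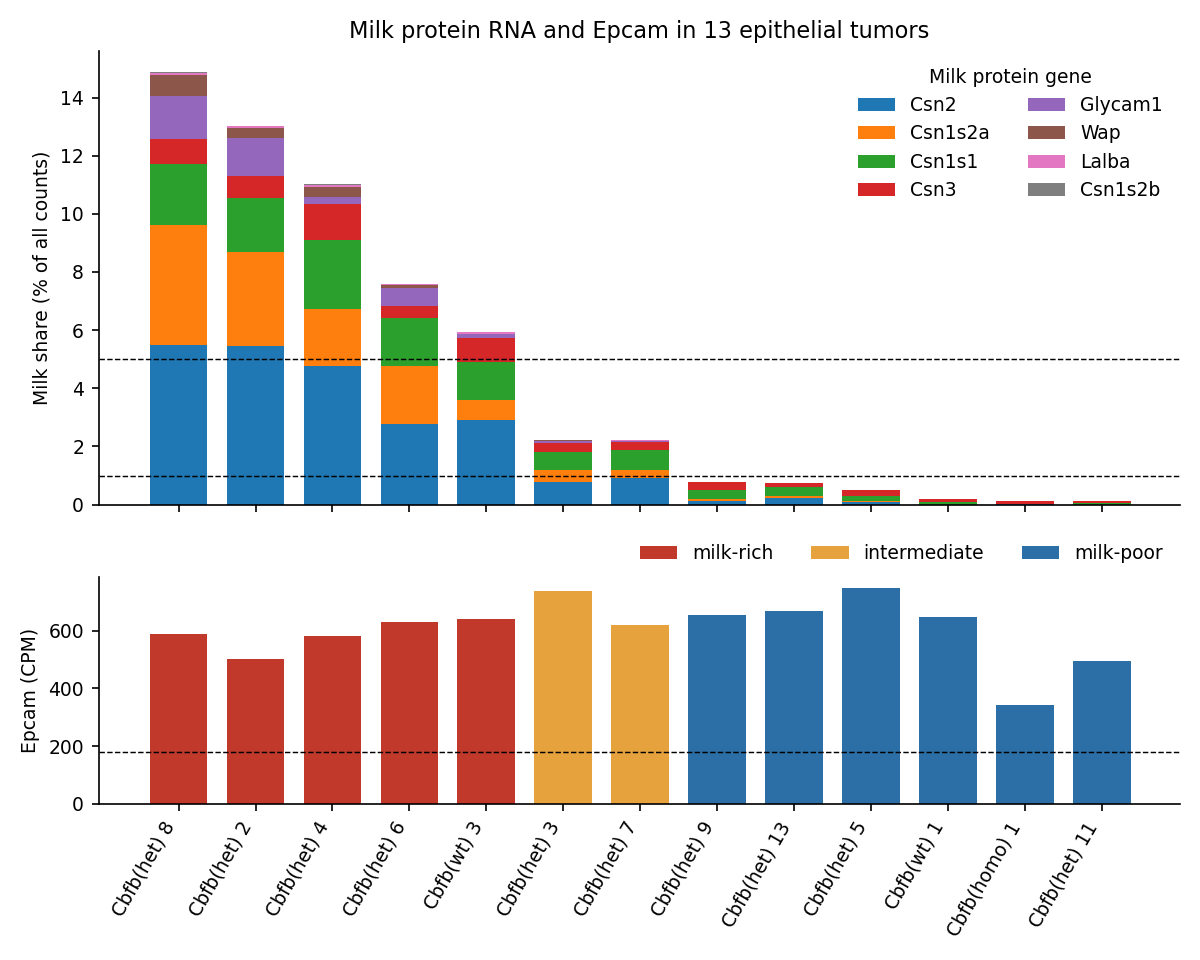
Stacked bars give the share of all expected counts (%) held by each of the 8 milk protein genes in the 13 epithelial tumors, and the lower bars give Epcam (CPM); dashed lines are the limits of 5%, 1% and 180 CPM. The 5 milk-rich tumors lie between 5.94% and 14.9% and the 6 milk-poor tumors at or below 0.772%, while Epcam overlaps between the sets.

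With the 8 milk genes taken out of the counts and Epcam out of the tested genes, 16968 genes were compared between the sets by edgeR's quasi-likelihood test with Benjamini-Hochberg adjustment. In milk-rich tumors 188 genes (1.11% of those tested) were called higher and 54 (0.318%) were called lower at an adjusted p under 0.05, or 1.43% in either direction. An unadjusted p under 0.05 was reached by 3225 of the 16968 genes, both directions together. List counts at that p below are to be read against this number. The share of calls in the higher direction was 77.7%, and 66.3% without the TMM scaling of libraries (130 higher, 66 lower). The excess of higher calls was not seen with DESeq2, where the share was 48.6% (721 higher, 764 lower), and was small with the continuous milk share (50.5%) or the leukocyte covariate (51.4%). Of the higher genes 137 changed at least 2-fold and 57 at least 4-fold, and of the lower genes 40 and 10. The sets did not overlap in 165 of the 188 higher genes, where 2.42% of all genes had every milk-rich tumor above every milk-poor one, and in 46 of the 54 lower genes, where 1.16% of all genes had the reverse. The sets were drawn from RNA of the same libraries, so the p-values describe how closely other genes followed the milk share, not a response to a treatment. Over all genes the median log2 fold change was 0.0012. The spread between tumors was wide, with a common biological coefficient of variation of 0.475.

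These counts moved with single tumors. Leaving out 1 of the 11 at a time gave 74 to 204 higher and 5 to 116 lower genes. The higher count fell by more than 1.5 times without Cbfb(het) 8 (74), Cbfb(het) 2 (77), Cbfb(het) 11 (83), Cbfb(wt) 3 (97), Cbfb(wt) 1 (111) or Cbfb(homo) 1 (114). The lower count moved that far without Cbfb(het) 8 (5), Cbfb(wt) 3 (5), Cbfb(het) 11 (12), Cbfb(het) 2 (14), Cbfb(homo) 1 (17), Cbfb(het) 6 (18), Cbfb(het) 5 (91) or Cbfb(het) 13 (116). Within the 8 Cbfb(het) tumors alone 36 genes were higher and 3 lower. With the mean level of an epithelial gene list as a covariate 38 were higher and 2 lower; that level ran from 7.59 to 8.22 log2 CPM in milk-rich and 7.15 to 8.01 in milk-poor tumors. All 188 higher genes had a positive log2 fold change in every alternative that tested them. With a mean of at least 1 CPM required, 182 of them were tested. The alternatives reuse the tumors in which these genes were called, so the signs had little room to change.

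**Figure D2:**
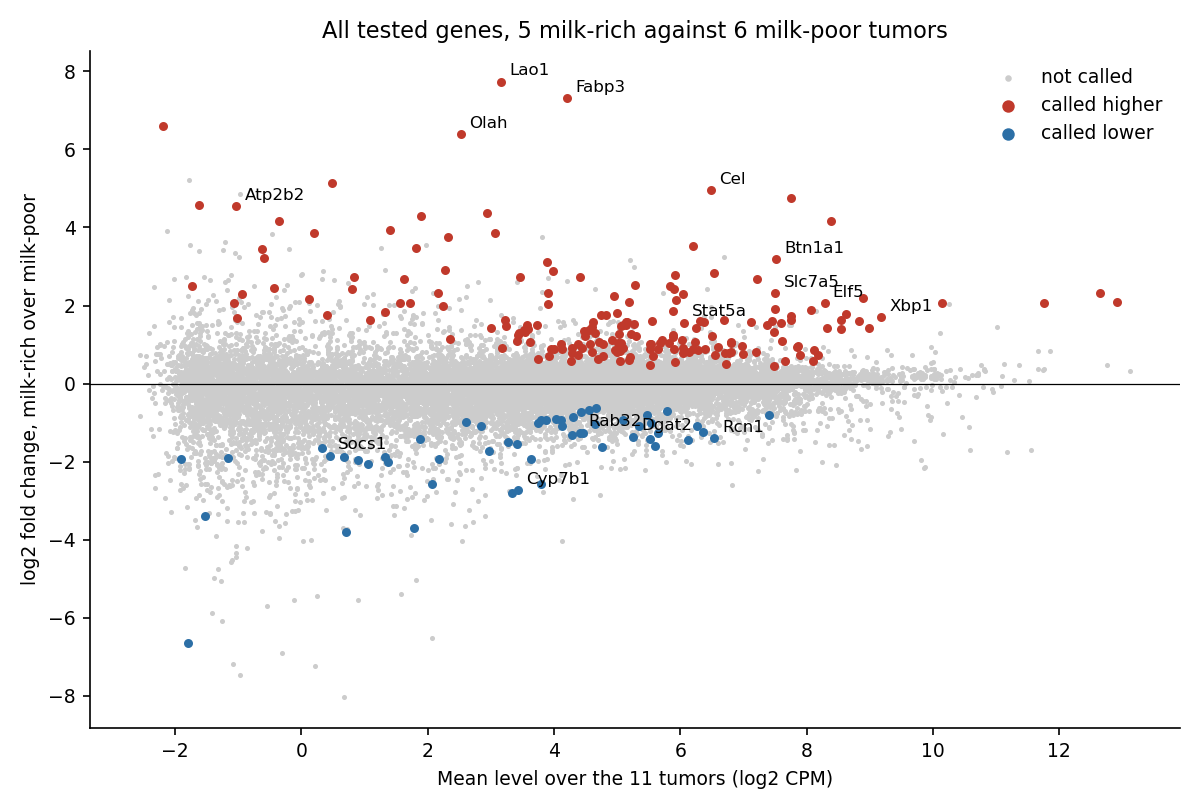
Each point is 1 of the 16968 genes tested, by its mean level over the 11 tumors (log2 CPM) and its log2 fold change between 5 milk-rich and 6 milk-poor tumors. Red points are the 188 genes called higher and blue points the 54 called lower; Lao1, Fabp3, Olah and Cel stand highest among the named genes.

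Elf5, Stat5a and Stat5b rose in milk-rich tumors, while the prolactin receptor and its kinase did not pass the test. Elf5, the ETS factor that specifies alveolar cells (ENSMUSG00000027186.14, chromosome 2, 103411688 to 103450989, plus strand), was at 906, 701, 608, 558 and 791 CPM in Cbfb(het) 8, 2, 4, 6 and Cbfb(wt) 3, the order used for all milk-rich values that follow. In the milk-poor tumors Elf5 ran from 69.7 to 242 CPM with a median of 175. Every milk-rich tumor lay above every milk-poor tumor, and edgeR called Elf5 higher (log2 fold change 2.07 ± 0.28 (SE), adjusted p 0.00632). The intermediate tumors Cbfb(het) 3 and 7 had 375 and 426 CPM of Elf5, between the sets.

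Stat5a (ENSMUSG00000004043.14, chromosome 11, 100859351 to 100885169, plus strand), which carries most STAT5 activity in the mammary gland, stood at 123, 102, 94.2, 133 and 176 CPM in milk-rich tumors. Milk-poor tumors had 24.7 to 77.8 CPM with a median of 40.3. The sets did not overlap, but the highest milk-poor tumor, Cbfb(homo) 1 at 77.8 CPM, came near the lowest milk-rich one. Stat5a rose (log2 fold change 1.56 ± 0.27 (SE), adjusted p 0.0209, edgeR), a call lost when any 1 of Cbfb(het) 8, 11 or Cbfb(wt) 3 was left out (adjusted p 0.0528 to 0.0639). Its neighbour Stat5b was at 76.8, 67.6, 76.9, 93.7 and 107 CPM in milk-rich tumors against 38.02 to 53.7 CPM with a median of 46.5 in milk-poor tumors. The sets did not overlap for Stat5b either, and it rose (log2 fold change 0.89 ± 0.14 (SE), adjusted p 0.0132, edgeR). No single tumor ended the Stat5b call, but it was lost in only Cbfb(het) tumors (adjusted p 0.132). With the epithelial covariate both calls were lost, at an adjusted p of 0.107 for Stat5a and 0.0980 for Stat5b.

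Prlr, the prolactin receptor, did not pass the test (log2 fold change 0.65 ± 0.59 (SE), adjusted p 0.603). Its milk-rich values were 26.5, 44.8, 289, 45.3 and 53.7 CPM, so Cbfb(het) 4 stood far above the other 4, and without that tumor the log2 fold change was -0.47. Milk-poor tumors ranged over 35.7 to 119.6 CPM and covered 3 of the other 4 milk-rich values, with Cbfb(het) 8 below them. Jak2, the receptor's kinase, was at 42.8 to 95.9 CPM against 44.0 to 101 CPM (log2 fold change -0.02 ± 0.24 (SE), adjusted p 0.971).

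Of the feedback inhibitors of the pathway named here, Socs1 was called and Cish and Socs2 were not. Socs1, which blocks JAK kinases, fell: milk-rich values were 0.755, 0.914, 0.576, 0.822 and 0.362 CPM and milk-poor values 1.04 to 3.61 CPM with a median of 2.45, with no overlap (log2 fold change -1.84 ± 0.39 (SE), adjusted p 0.0434, edgeR). Socs1 is a low-level gene and lost its call when any 1 of Cbfb(het) 2, 4, 5, 6, 8, 9, 11, Cbfb(wt) 1, 3 or Cbfb(homo) 1 was left out (adjusted p 0.0523 to 0.107). Cish, a classic STAT5 target, had 27.7 to 64.6 CPM in milk-rich and 18.3 to 33.3 CPM in milk-poor tumors and did not pass (log2 fold change 0.69 ± 0.25 (SE), adjusted p 0.164). Socs2, another STAT5 target, overlapped widely (log2 fold change -0.11 ± 0.46 (SE), adjusted p 0.926), with Cbfb(het) 4 again the highest milk-rich tumor at 68.5 CPM. Of the 20 genes listed for the prolactin receptor, JAK2 and STAT5 pathway, all tested, edgeR called 2 higher and 1 lower. Over all genes the shares were 1.11% and 0.318%. At an unadjusted p under 0.05, 4 of the list were higher and 3 lower, where 3225 of all 16968 genes were in either direction. DESeq2 called 2 of the list higher and 2 lower, against 721 and 764 of all genes. The median log2 fold change of the list was 0.14. Of 17 alveolar and luminal transcription factors edgeR called only Elf5, DESeq2 called 2 higher, and the list's median was 0.01. Runx1 (log2 fold change -0.33 ± 0.23 (SE), adjusted p 0.496) was not called.

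**Figure D3:**
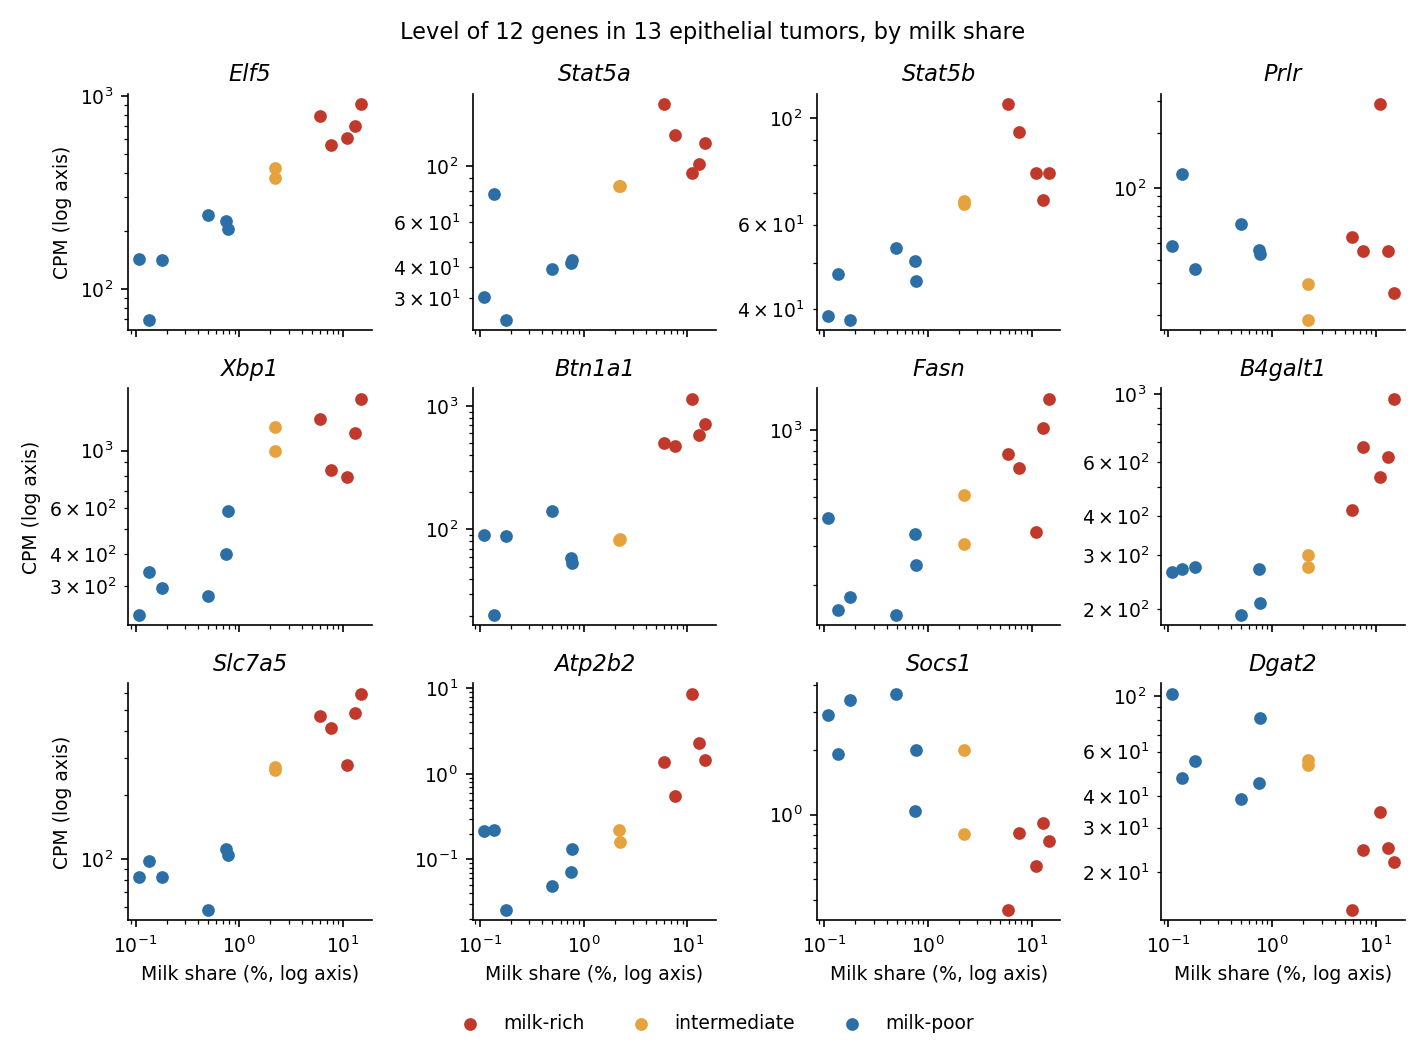
Levels of 12 genes (CPM, log axis) in the 13 epithelial tumors are plotted against the milk share (%, log axis), with colors for milk-rich, intermediate and milk-poor tumors. Elf5, Stat5a, Stat5b, Btn1a1 and Slc7a5 have all 5 milk-rich points above all 6 milk-poor points, Socs1 and Dgat2 have them below, and Prlr overlaps.

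Many genes for other secreted milk products, none of which entered the rule, rose in milk-rich tumors. Of 20 listed genes for the milk fat globule and other secreted milk products, 12 were called higher (1.11% of all genes) and none lower. Of these 20 genes 18 had a positive log2 fold change, as did 50.1% of all genes. Their median was 2.07, against 0.0012 over all genes. The 12 calls became 7 without Cbfb(het) 2, Cbfb(het) 8 or Cbfb(het) 11, 5 in only Cbfb(het) tumors and 4 with the epithelial covariate. The mean level of the list was 8.41 to 9.63 in the milk-rich and 6.28 to 7.19 in the milk-poor tumors (log2 CPM), without overlap. The lists here and below were drawn up with earlier results of these tumors known and their counts are not independent evidence of the direction.

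Cel, bile salt-stimulated lipase, which is secreted into milk, was at 1151, 709, 319, 332 and 865 CPM in the milk-rich set and 5.19 to 43.6 CPM with a median of 20.2 in the milk-poor set. Cel rose by 4.95 ± 0.53 (SE) on the log2 scale, with an adjusted p of 0.00246, and intermediate tumors had 163 and 289.6 CPM. The butyrophilin gene Btn1a1, a main membrane protein of the milk fat globule, was at 713, 583, 1133, 473 and 501 CPM in milk-rich tumors against 20.4 to 139.9 CPM with a median of 73.7 (log2 fold change 3.18 ± 0.43 (SE), adjusted p 0.00545). Here the intermediate tumors, at 84.0 and 82.4 CPM, lay within the milk-poor range. Xdh, xanthine oxidoreductase, which joins butyrophilin and perilipin-2 at the globule surface, was at 699.9 ± 95.1 CPM (SD, n = 5) in the milk-rich and 226 ± 46.2 CPM (SD, n = 6) in the milk-poor tumors (log2 fold change 1.63 ± 0.18 (SE), adjusted p 0.00246). Plin2, the coat protein of lipid droplets, rose from 158 to 438 CPM in milk-poor to 698 to 1929.8 CPM in milk-rich tumors (log2 fold change 2.20 ± 0.33 (SE), adjusted p 0.00981). For these 4 genes the sets did not overlap, as for 165 of the 188 genes called higher and 2.42% of all genes.

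The steepest rises in the list were in genes nearly silent in milk-poor tumors. Lao1, an L-amino acid oxidase secreted in mouse milk, was at 315, 247, 959, 36.6 and 16.2 CPM against 0 to 2.90 CPM with a median of 1.16, and 1 milk-poor tumor, Cbfb(wt) 1, had 0 counts of it (log2 fold change 7.74 ± 1.23 (SE), adjusted p 0.0132). Fabp3, a fatty acid-binding protein of lactating epithelium, was at 896, 1003, 420.4, 286 and 126 CPM against 0.0517 to 13.4 CPM with a median of 1.78 (log2 fold change 7.32 ± 1.18 (SE), adjusted p 0.0132). Reads of Fabp3 may be shared with a near-identical pseudogene copy, so its level is uncertain. Within the milk-rich set Lao1 spread from 16.2 CPM in Cbfb(wt) 3 to 959 CPM in Cbfb(het) 4, and limma-voom did not call it (adjusted p 0.0743).

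Pigr, the receptor that carries immunoglobulin A into milk, rose by 2.67 ± 0.39 (SE) on the log2 scale, at an adjusted p of 0.00805. The membrane mucin Muc1 of the globule (log2 fold change 1.57), lactoferrin Ltf (2.05), transferrin Trf (2.32), the mucin Muc15 (1.88) and osteopontin Spp1 (2.08) were also called higher, with adjusted p between 0.0314 and 0.0465. Trf and Spp1 were among the most abundant RNAs of milk-rich tumors, at 4265 to 36595 CPM and 4074 to 37672 CPM, and Cbfb(wt) 3 was the lowest milk-rich tumor in both, inside the milk-poor range of 2664 to 5411 CPM for Trf and 3414 to 5535 CPM for Spp1. Each of these 5 calls was lost on leaving out any 1 of several tumors. Muc1 lost its call without Cbfb(het) 2, 6, 8, 11 or Cbfb(wt) 3 (adjusted p 0.0575 to 0.0889), Ltf without Cbfb(het) 2, 4, 5, 8, 11, Cbfb(wt) 1, 3 or Cbfb(homo) 1 (0.0502 to 0.0787), Trf without Cbfb(het) 2, 4, 8, 9, 11, 13, Cbfb(wt) 1 or Cbfb(homo) 1 (0.05005 to 0.0911), Muc15 without Cbfb(het) 2, 4, 8, 9, 11, 13, Cbfb(wt) 1, 3 or Cbfb(homo) 1 (0.0539 to 0.106) and Spp1 without Cbfb(het) 2, 4, 5, 6, 8, 9, 11, 13, Cbfb(wt) 1 or Cbfb(homo) 1 (0.0520 to 0.115). Slpi (-0.93), Mfge8 (0.33) and Lpo (2.49) of the same list did not pass.

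Many fatty acid and triglyceride synthesis genes rose, while Dgat2 fell. Of 29 listed genes 10 were called higher and 1 lower (1.11% and 0.318% of all genes), 24 had a positive log2 fold change, and the median was 0.81. The 10 calls became 5 without Cbfb(het) 2 or Cbfb(het) 8, 3 in only Cbfb(het) tumors, 4 with the epithelial covariate and 16 with DESeq2. List levels were 6.59 to 7.20 in the milk-rich and 5.42 to 6.23 in the milk-poor tumors (log2 CPM), again without overlap. Acly, ATP citrate lyase, which supplies cytosolic acetyl-CoA, was at 584, 518, 374, 682 and 622 CPM in milk-rich tumors and at 182 to 243 CPM with a median of 204 in milk-poor tumors (log2 fold change 1.41 ± 0.16 (SE), adjusted p 0.00358). Acaca, acetyl-CoA carboxylase, the committed step of fatty acid synthesis, was at 492, 346, 264, 358 and 462 CPM against 66.5 to 149 CPM with a median of 93.4 (log2 fold change 1.91 ± 0.23 (SE), adjusted p 0.00367). In both genes the lowest milk-rich tumor was Cbfb(het) 4, which still exceeded all milk-poor tumors. Fasn, fatty acid synthase, showed more overlap: 1374, 1020.0, 349, 675 and 779.8 CPM against 147 to 403 CPM with a median of 212 (log2 fold change 1.78 ± 0.37 (SE), adjusted p 0.0410).

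Olah, the thioesterase that ends fatty acid chains early and gives milk its medium-chain fatty acids, was at 139.9, 55.3, 204, 7.16 and 21.6 CPM in milk-rich and 0.465 to 1.75 CPM in milk-poor tumors (log2 fold change 6.397 ± 0.83 (SE), adjusted p 0.00444). Its milk-rich values were far apart, and neither limma-voom (adjusted p 0.0599) nor its version with quality weights (0.0749) called it. Acsl4, which activates long-chain fatty acids to acyl-CoA, was at 328, 293, 311, 259 and 289 CPM against 83.3 to 137 CPM with a median of 101 (log2 fold change 1.51 ± 0.15 (SE), adjusted p 0.00169). Scd1, the stearoyl-CoA desaturase (log2 fold change 2.06), Thrsp, a lipogenic regulator also called Spot 14 (3.52), Me1, malic enzyme (0.97), Gpat4, which starts glycerolipid assembly (0.81), and the phosphatidate phosphatase Lpin1 (1.45) were called higher with adjusted p from 0.0154 to 0.0444. Dgat2, an enzyme of the last step of triglyceride synthesis, fell: milk-rich values were 21.8, 24.9, 34.5, 24.5 and 14.2 CPM and milk-poor values 39.0 to 101 CPM with a median of 51.2, without overlap (log2 fold change -1.36 ± 0.29 (SE), adjusted p 0.0467). Dgat1, which catalyzes the same step, had a log2 fold change of 0.28 and did not pass.

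Several of the lipid calls depended on single tumors. The call was lost for Fasn without Cbfb(het) 2, 5, 6, 8, 9, Cbfb(wt) 1, 3 or Cbfb(homo) 1 (adjusted p 0.0553 to 0.113), for Scd1 without Cbfb(het) 2, 8 or 11 (0.0538 to 0.0634), for Me1 without Cbfb(het) 2, 8 or Cbfb(homo) 1 (0.0567 to 0.0786), for Thrsp without Cbfb(het) 2, 5, 6, 8, 9, 11 or Cbfb(wt) 1, 3 (0.0502 to 0.101), for Lpin1 without Cbfb(het) 2, 4, 5, 6, 8, 9, 13, Cbfb(wt) 1 or Cbfb(homo) 1 (0.0586 to 0.123) and for Dgat2 without Cbfb(het) 2, 6, 8, 9, 11, Cbfb(wt) 1, 3 or Cbfb(homo) 1 (0.0655 to 0.126). Acsl4, Acly, Acaca, Olah and Gpat4 were called whichever tumor was left out. Cholesterol synthesis genes, which share the SREBP regulators with lipogenesis, had no member called by edgeR or limma-voom. Of 23 genes 6 were lower at an unadjusted p under 0.05, a p that 3225 of all 16968 genes reached in either direction. DESeq2 called 1 of the 23 lower, 20 had a negative log2 fold change, and the median was -0.34. The mean level of the list was 5.08 to 6.20 in the milk-rich and 5.99 to 6.46 in the milk-poor tumors (log2 CPM).

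Transporters of lactation rose in part. Of 20 listed genes for ion and nutrient transport 19 were tested, 7 were called higher (1.11% of all genes) and none lower, and the median was 0.97. The 7 calls became 2 in only Cbfb(het) tumors and 4 with the epithelial covariate. Slc7a5 (ENSMUSG00000040010.10, chromosome 8, 121881150 to 121907694, minus strand), the light chain of the large neutral amino acid exchanger, was at 594, 485, 275, 413 and 468 CPM in milk-rich tumors against 58.1 to 112 CPM with a median of 90.7 (log2 fold change 2.32 ± 0.22 (SE), adjusted p 0.00169). Atp2c2, a calcium and manganese pump of the secretory pathway, was at 168, 173, 123, 141 and 170.3 CPM against 15.0 to 39.9 CPM with a median of 29.0 (log2 fold change 2.43 ± 0.24 (SE), adjusted p 0.00169). Both were called in every one of the 27 alternative settings. Slc3a2, the heavy chain that pairs with Slc7a5, had a log2 fold change of 0.29 and did not pass.

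Folr1, a folate receptor, was at 241, 213, 218, 86.0 and 169 CPM in milk-rich and 14.3 to 52.1 CPM in milk-poor tumors (log2 fold change 2.77 ± 0.36 (SE), adjusted p 0.00444). Abcg2, which exports riboflavin and drugs into milk, rose by 2.51 ± 0.36 (SE) on the log2 scale (adjusted p 0.00783). Atp2b2, the plasma membrane pump that delivers most milk calcium, was near the detection limit in milk-poor tumors (0.0258 to 0.219 CPM) and at 1.44, 2.28, 8.50, 0.557 and 1.36 CPM in milk-rich tumors (log2 fold change 4.54 ± 0.78 (SE), adjusted p 0.0195). The zinc transporter Slc30a2 (2.89) and the nucleoside transporter Slc28a3 (1.55) were also called higher. Slc30a2 lost its call without Cbfb(het) 2, 6, 8, 11, Cbfb(wt) 1, 3 or Cbfb(homo) 1 (adjusted p 0.0538 to 0.0835), and Slc28a3 without Cbfb(het) 2, 4, 5, 6, 8, 9, 11, Cbfb(wt) 1, 3 or Cbfb(homo) 1 (0.0501 to 0.110). Aqp3 (-1.61) and Slc34a2 (0.71) did not pass.

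The lactose, secretory and involution lists each had 1 or 2 members called by edgeR, all higher, where 1.11% of all genes were called higher. B4galt1, the catalytic subunit of lactose synthase, was at 961, 624, 539, 671 and 418 CPM against 192 to 275 CPM with a median of 266 (log2 fold change 1.39 ± 0.21 (SE), adjusted p 0.00981). It was the 1 of 13 lactose synthesis genes called by edgeR. DESeq2 and voom with quality weights each called 2 of the 13 higher, and the list's median was 0.12. The B4galt1 promoter window holds the half-site pair described above, at 99 to 91 bases before the start. B4galt1 is among the 11 of 140 matched genes called higher with the pair (7.86%), a share near the 7.33% of all matched genes tested. Whether the pair acts in these tumors was not tested. Xbp1, a factor that expands the endoplasmic reticulum, was at 1576, 1172, 789, 838 and 1326 CPM against 233 to 584 CPM with a median of 319 (log2 fold change 1.69 ± 0.26 (SE), adjusted p 0.0109), and the intermediate tumors had 995 and 1228 CPM. Creb3l1, a membrane-bound factor of the same stress response family, was at 48.6 ± 7.23 CPM (SD, n = 5) in the milk-rich and 24.4 ± 4.37 CPM (SD, n = 6) in the milk-poor tumors (log2 fold change 1.00 ± 0.15 (SE), adjusted p 0.00981). With Epcam set to at least 100 CPM, which adds Cbfb(het) 12 to the milk-poor set, the Creb3l1 log2 fold change was 0.22 (adjusted p 0.864). The other 28 of 30 secretory pathway and unfolded protein response genes did not pass. Of the 30, 25 had a positive log2 fold change, as did 50.1% of all genes, and the list's median was 0.13. Hspa5, the main chaperone of that response, had a log2 fold change of 0.13. Of 18 involution and STAT3 genes edgeR called only Lbp, a lipopolysaccharide-binding protein, which was higher (log2 fold change 1.74 ± 0.36 (SE), adjusted p 0.0411). Lbp lost the call without Cbfb(het) 2, 4, 5, 8, 11, Cbfb(wt) 1, 3 or Cbfb(homo) 1 (adjusted p 0.0571 to 0.101). At an unadjusted p under 0.05, 3 genes of this list were higher and 4 lower, where 3225 of all 16968 genes were in either direction. DESeq2 called 2 of the list higher and 2 lower, against 721 and 764 of all genes. Stat3 itself had a log2 fold change of -0.02.

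**Figure D4:**
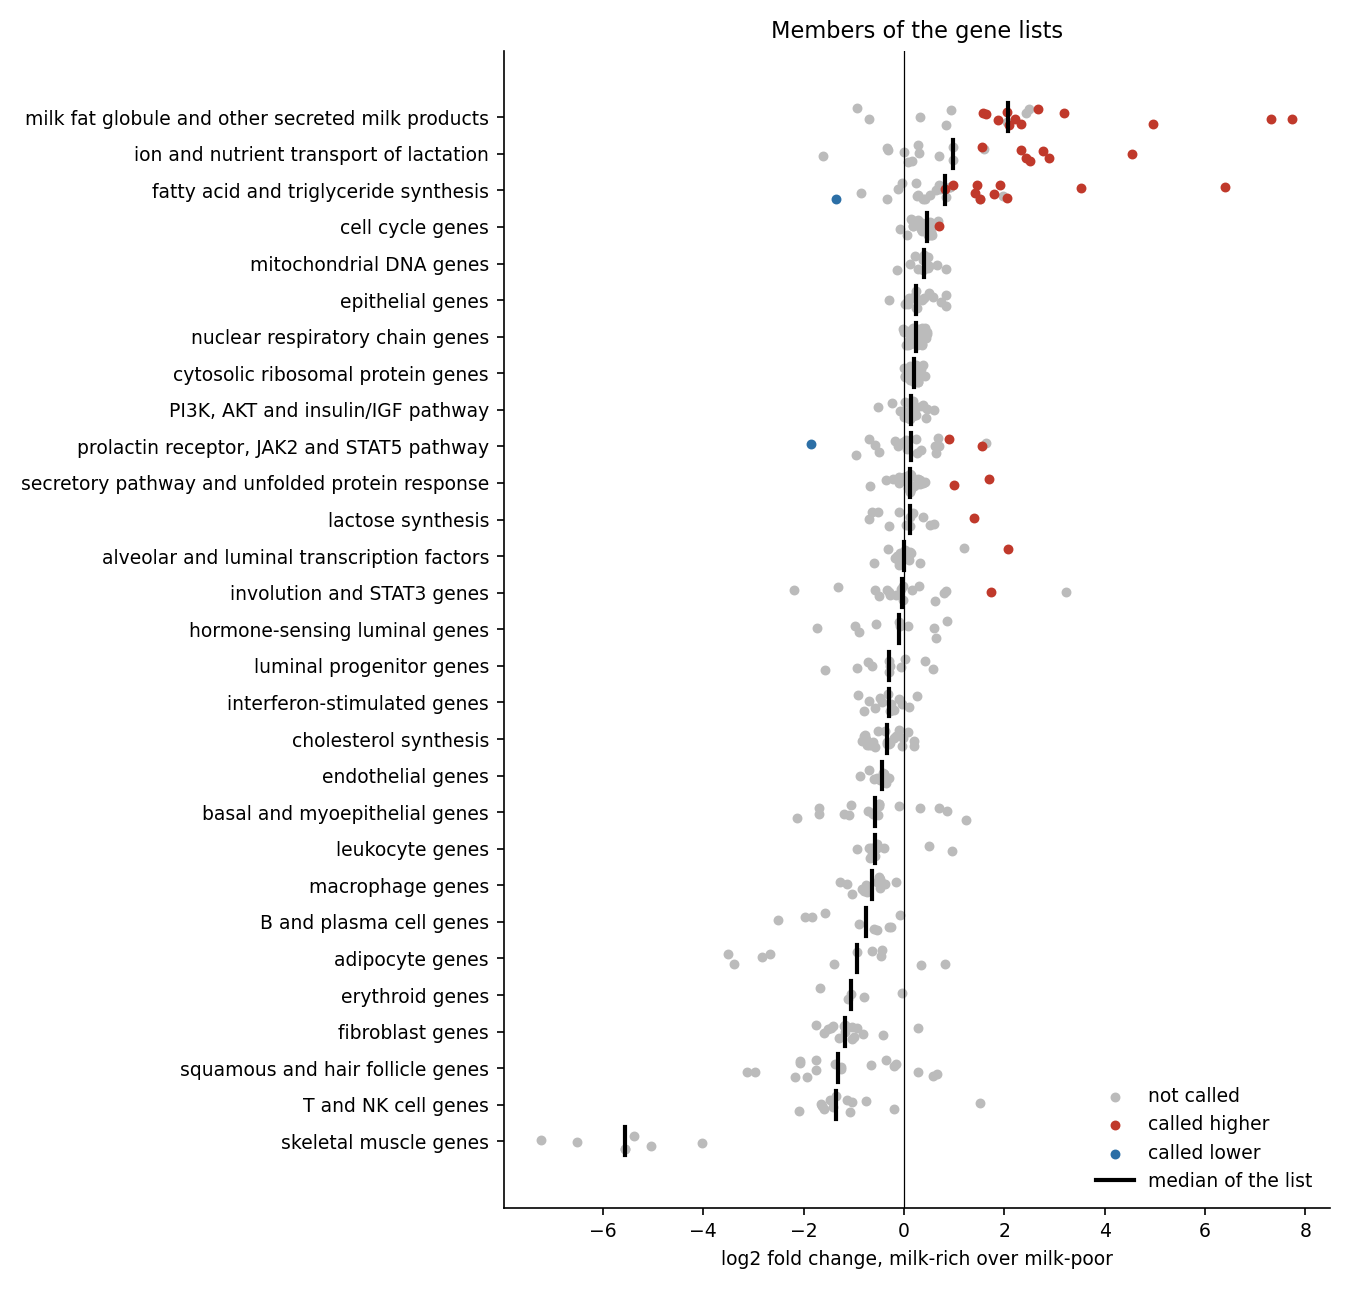
Each point is a tested member of a gene list at its log2 fold change, milk-rich over milk-poor, with red for genes called higher, blue for genes called lower and a black bar at the list's median. Medians run from 2.07 for milk fat globule and other secreted milk products to -5.55 for skeletal muscle genes. The skeletal muscle median was -2.61 without Cbfb(het) 5.

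Among the other genes with the smallest p in the higher direction, the rule for naming took 6 that belong to none of these lists. Ehhadh, a peroxisomal enzyme of fatty acid oxidation, was at 44.3, 34.1, 27.9, 32.1 and 25.2 CPM in milk-rich and 5.76 to 10.7 CPM with a median of 7.96 in milk-poor tumors (log2 fold change 2.04 ± 0.20 (SE), adjusted p 0.00169). Tnfrsf11a, the receptor RANK, which drives alveolar growth in response to RANK ligand, was at 39.8, 42.3, 43.0, 39.0 and 61.0 CPM against 10.1 to 19.6 CPM with a median of 15.3 (log2 fold change 1.56 ± 0.17 (SE), adjusted p 0.00272). Its ligand gene Tnfsf11 had a log2 fold change of 0.61 and did not pass. Chrdl2, a secreted BMP antagonist, had 45.6 ± 8.77 CPM (SD, n = 5) in the milk-rich and 2.22 ± 1.40 CPM (SD, n = 6) in the milk-poor tumors (log2 fold change 4.37 ± 0.51 (SE), adjusted p 0.00358). Fam3c, a secreted cytokine-like protein (log2 fold change 1.63), Igfals, the acid-labile subunit that binds insulin-like growth factors in serum (2.24), and Nlrp9b, a NOD-like receptor (2.05), rose as well, with an adjusted p of 0.00367 each. In all 6 every milk-rich tumor lay above every milk-poor tumor, as in 165 of the 188 genes called higher and 2.42% of all genes. They were picked by a small p, which largely sets this.

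Of the 54 genes lower in milk-rich tumors 12 were named by their small p. The functions of the 54 as a group were not tested. Rab32, a small GTPase of lysosome-related organelles and mitochondria, was at 13.1, 13.6, 12.5, 15.99 and 11.4 CPM in milk-rich and 25.3 to 38.8 CPM with a median of 31.6 in milk-poor tumors (log2 fold change -1.26 ± 0.15 (SE), adjusted p 0.00358). Trex1, the exonuclease that clears cytosolic DNA, was at 10.4, 9.78, 9.28, 8.81 and 7.58 CPM against 14.7 to 21.7 CPM with a median of 19.7 (log2 fold change -1.01 ± 0.15 (SE), adjusted p 0.00981). Rab32 and Trex1 differed without overlap and kept their calls whichever tumor was left out, as did Wdr91, an endosomal regulator (log2 fold change -0.63 ± 0.10 (SE), adjusted p 0.0147). Irf5, a transcription factor of innate immunity (log2 fold change -0.86), Ikbke, a kinase of the interferon response (-0.72), and Otulinl, an endoplasmic reticulum protein (-1.04), fell with an adjusted p of 0.0217 each. Cyp7b1, the oxysterol hydroxylase, had the largest fall of the 12: its milk-rich values were 4.74, 5.21, 3.06, 6.90 and 1.99 CPM and its milk-poor values 12.2 to 61.8 CPM with a median of 20.02 (log2 fold change -2.74 ± 0.50 (SE), adjusted p 0.0249). Rcn1 (-1.40), Afap1l2 (-1.32), Tmem140 (-1.26), Gpr157 (-1.09) and Tm4sf1 (-0.79) fell as well.

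Of these 12 lower genes 9 lost the call when some single tumor was left out, and in each case Cbfb(het) 8 was among those tumors. The others were Cbfb(het) 6 and Cbfb(wt) 3 for Irf5 (adjusted p 0.0527 to 0.0554 over these), Cbfb(het) 2 and Cbfb(wt) 3 for Ikbke (0.0581 to 0.0641) and for Tm4sf1 (0.0686 to 0.0722), and Cbfb(het) 6 and 11 for Otulinl (0.0507 to 0.0732). They were Cbfb(het) 2, 11 and Cbfb(wt) 3 for Afap1l2 (0.0528 to 0.0786), and Cbfb(het) 2, 4, 11 and Cbfb(wt) 3 for Tmem140 (0.0530 to 0.0713) and for Cyp7b1 (0.0507 to 0.0765). They were Cbfb(het) 2, 4, 11, Cbfb(wt) 3 and Cbfb(homo) 1 for Gpr157 (0.0508 to 0.0765), and Cbfb(het) 4, 6, 11, Cbfb(wt) 3 and Cbfb(homo) 1 for Rcn1 (0.0501 to 0.0794). The sign of all 9 was negative throughout.

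Marker lists of basal, squamous, stromal and immune cells had negative medians, and edgeR and limma-voom called none of their genes. At an unadjusted p under 0.05, edgeR had 8 basal, 5 squamous, 6 fibroblast, 8 leukocyte, 7 macrophage and 6 T and NK cell genes lower, and 1 leukocyte gene higher. These lists had 18, 18, 16, 12, 14 and 13 tested genes, in that order. Of all 16968 genes 3225 were under that p, higher and lower together. DESeq2 called 7 basal, 2 squamous, 3 fibroblast and 2 T and NK cell genes lower, and the continuous milk share also called 7 basal genes lower. Over all genes DESeq2 called 764 lower and the continuous milk share 600. The median over basal and myoepithelial genes was -0.57; 14 of the 18 were negative, at levels of 5.30 to 6.79 in the milk-rich and 6.14 to 8.01 in the milk-poor tumors (log2 CPM). The basal keratins Krt5, Krt14 and Krt17 did not overlap between the sets but did not pass the test: Krt5 was at 589 to 1164 CPM against 1299 to 7213 CPM (log2 fold change -1.69 ± 0.45 (SE), adjusted p 0.0835), Krt14 at 452 to 2823 against 2944 to 10672 CPM (log2 fold change -1.69 ± 0.46 (SE), adjusted p 0.0892) and Krt17 at 155 to 722 against 959 to 5792 CPM (log2 fold change -2.14 ± 0.55 (SE), adjusted p 0.0801). In 3 of the 18 basal genes every milk-rich tumor lay below every milk-poor tumor, as in 1.16% of all genes. Contractile genes of the same list such as Acta2 (-0.50) and Mylk (0.86) overlapped. The squamous and hair follicle list had a median of -1.32 with levels of 1.44 to 5.93 in the milk-rich and 3.40 to 7.80 in the milk-poor tumors. Luminal progenitor genes had a median of -0.30, with 1 higher and 2 lower at an unadjusted p under 0.05, and DESeq2 called 1 lower. Ly6d among them was at 58.5 to 339.7 CPM against 335 to 1026 CPM (log2 fold change -1.57 ± 0.45 (SE), adjusted p 0.0996). Of 10 tested hormone-sensing luminal genes none was called by edgeR, DESeq2 or limma-voom, 0 reached an unadjusted p under 0.05, and the median was -0.10. The epithelial list had 17 of 18 positive members and a median of 0.25. edgeR called none of its genes, with 4 higher at an unadjusted p under 0.05, and DESeq2 called 1 higher.

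Stromal and immune lists had negative medians. For fibroblast genes 15 of 16 were negative, with a median of -1.18 and levels of 4.27 to 6.88 in the milk-rich and 5.31 to 7.67 in the milk-poor tumors (log2 CPM). Col1a1 was at 52.9 to 1068 CPM against 326 to 2576 CPM, and Pdgfra at 9.88 to 24.5 against 10.05 to 56.7 CPM. Macrophage genes were negative in 14 of 14 (median -0.64, levels 4.90 to 5.58 in the milk-rich and 5.05 to 6.68 in the milk-poor tumors). The leukocyte list had 10 of 12 negative members (median -0.58) and levels of 5.09 to 5.37 in the milk-rich and 4.72 to 6.11 in the milk-poor tumors, with Ptprc at 22.9 to 45.2 against 31.0 to 80.1 CPM. T and NK cell genes were negative in 12 of 13 (median -1.36, levels -1.42 to 0.39 in the milk-rich and -0.73 to 1.91 in the milk-poor tumors), and Cd3e, their defining marker, was low in both sets, with 0.206 to 1.01 against 0.956 to 5.34 CPM. Endothelial genes (median -0.44), B and plasma cell genes (-0.75), adipocyte genes (-0.94) and erythroid genes (-1.05) had negative medians too. The levels of these 4 lists, in that order, were 3.28 to 3.98 in the milk-rich and 3.30 to 5.29 in the milk-poor tumors, 0.15 to 2.17 in the milk-rich and -0.49 to 3.78 in the milk-poor tumors, 1.37 to 4.07 in the milk-rich and 0.31 to 5.31 in the milk-poor tumors, and 3.42 to 5.97 in the milk-rich and 3.75 to 7.51 in the milk-poor tumors. All of these lists overlapped between the sets, and their part in the results was not tested.

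Skeletal muscle genes had the lowest median, -5.55 over 7 tested, with levels of -1.62 to 1.17 in the milk-rich and -0.96 to 7.81 in the milk-poor tumors. Without Cbfb(het) 5 the median was -2.61 over 6 tested. The listed genes Ckm, Myh4 and Actn3 did not enter the test, with highest counts of 32568, 33392 and 8806 in a tumor. Of all 16968 genes 3225 had an unadjusted p under 0.05, in either direction. edgeR called none of the 7 tested muscle genes, all of which were lower at that p, and DESeq2 called 3. Acta1, their defining marker, was at 0.398 to 11.2 CPM in milk-rich and 0.347 to 1416 CPM in milk-poor tumors. The high values were in 3 milk-poor tumors, Cbfb(het) 5 at 1416, Cbfb(homo) 1 at 76.0 and Cbfb(het) 11 at 67.1 CPM. Adipoq, an adipocyte hormone, was at 0.0576 to 7.37 CPM against 0 to 39.0 CPM. With the leukocyte level as a covariate 282 genes were called higher and 267 lower, and 149 of the 188 higher and 49 of the 54 lower genes kept their calls.

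Genes of growth and of the engineered alleles gave 1 edgeR call. Cell cycle genes had 33 of 34 positive log2 fold changes with a median of 0.45 and levels of 5.39 to 5.66 in the milk-rich and 4.38 to 5.46 in the milk-poor tumors. At an unadjusted p under 0.05, edgeR had 13 of the 34 higher and 0 lower, and DESeq2 called 4 higher. Over all 16968 genes 3225 were under that p in either direction, and DESeq2 called 721 higher and 764 lower. These numbers are the background for the other lists of this paragraph as well. In 5 of the 34 every milk-rich tumor lay above every milk-poor tumor, as in 2.42% of all genes. After adjustment edgeR called only Rrm2 of the 34, where 1.11% of all genes were called higher. Rrm2, the ribonucleotide reductase subunit made in S phase, had a log2 fold change of 0.70 ± 0.15 (SE) and an adjusted p of 0.0457. Rrm2 lost the call without Cbfb(het) 2, 4, 5, 6, 8, 11, 13, Cbfb(wt) 1, 3 or Cbfb(homo) 1 (adjusted p 0.0543 to 0.119). Mki67, the proliferation marker, did not pass (log2 fold change 0.50 ± 0.26 (SE), adjusted p 0.331). Of 23 PI3K, AKT and insulin/IGF pathway genes edgeR, DESeq2 and limma-voom called none (4 higher and 2 lower at an unadjusted p under 0.05; median 0.14), and Pik3ca was at 105 to 150.4 CPM against 96.0 to 175 CPM (log2 fold change -0.02 ± 0.18 (SE), adjusted p 0.960). Cbfb was at 40.97 to 52.7 CPM in milk-rich and 18.8 to 61.6 CPM in milk-poor tumors (log2 fold change -0.10 ± 0.25 (SE), adjusted p 0.885), and its lowest value was that of Cbfb(homo) 1. Cytosolic ribosomal protein genes were positive in 35 of 36 (median 0.20), nuclear respiratory chain genes in 31 of 33 (median 0.25) and mitochondrial DNA genes in 12 of 13 (median 0.41). edgeR called no gene of these 3 lists. At an unadjusted p under 0.05 it had 0 ribosomal, 6 respiratory chain and 5 mitochondrial DNA genes higher, and DESeq2 called 0, 2 and 3. Interferon-stimulated genes had a median of -0.30; edgeR called none of 14, with 2 lower at an unadjusted p under 0.05, and DESeq2 called 1 lower.

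In lists without a call, the member with the smallest p was named by rule. Beside Krt17, Ly6d and Cd3e, given above, these were Uqcrc2, a core subunit of respiratory complex III (log2 fold change 0.41 ± 0.10 (SE), adjusted p 0.0699), Ap1m2, an epithelial adaptor subunit (log2 fold change 0.74, adjusted p 0.0927), the squamous keratin Krt6b (-2.17, 0.159), the collagen gene Col6a1 (-1.46, 0.130) and the complement gene C1qc (-0.74, 0.156). They further included the leukocyte gene Lcp1 (0.50, 0.149), the immunoglobulin gene Iglc2 (-2.51, 0.271), the globin Hba-a1 (-1.68, 0.297), the endothelial receptor Tek (-0.69, 0.338) and the estrogen target Greb1 (-1.73, 0.349). The lipase Pnpla2 (0.81, 0.160), the muscle phosphorylase Pygm (-5.55, 0.105), the interferon-induced gene Xaf1 (-0.92, 0.114), Foxo3 of the AKT pathway (0.44, 0.142) and the mitochondrial mt-Nd4 (0.48, 0.144) were named as well. Among them every milk-rich tumor lay above every milk-poor tumor in Uqcrc2, as in 2.42% of all genes.

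The 2 tumors between the limits gave values that the choice of sets did not use. Of the 188 genes called higher, 165 (87.8%) lay between the means of the sets in Cbfb(het) 3 and 165 (87.8%) in Cbfb(het) 7, against 24.5% and 25.2% of all tested genes. Called genes were selected for a gap between these means that was wide against their spread, and other genes were not. The contrast with all genes is largely set by that selection and is no independent check of the calls. On a scale with 0 at the milk-poor mean and 1 at the milk-rich mean, the median higher gene stood at 0.508 in Cbfb(het) 3 and 0.595 in Cbfb(het) 7. The median of all tested genes was 0.564 and 1.01 in these tumors, so a positive median position is not particular to called genes. For the 54 lower genes 46 (85.2%) lay between the means in Cbfb(het) 3 and 38 (70.4%) in Cbfb(het) 7, with median positions of 0.404 and 0.791. Single genes varied in this: Xbp1, at 995 and 1228 CPM in these tumors, was inside the milk-rich range in both, and Btn1a1 inside the milk-poor range in both. In the 5 tumors with little Epcam the mean level of the higher genes was 2.78 to 4.07 log2 CPM. It was 3.92 to 4.42 in milk-poor, 5.01 and 5.16 in intermediate and 5.69 to 6.21 in milk-rich tumors.

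Total counts overlapped between the sets: totals were 33210246 to 39728610 expected counts in milk-rich and 36910506 to 40974153 in milk-poor tumors. After the 8 milk genes were taken out, 85.1% to 94.1% of the counts remained in milk-rich tumors and at least 99.2% in milk-poor tumors. Among the 11 tumors the most alike pair by counts was Cbfb(het) 2 and Cbfb(het) 8, with a chi-square per gene of 85.9 against a median of 400.4 over 55 pairs. Without both of these milk-rich tumors 8 genes were called higher and none lower by edgeR, with 2599 genes at an unadjusted p under 0.05.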

How the data were processed

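RNA of 18 tumors was sequenced from stranded mRNA libraries, per the labels' protocols. The authors deposited an expected count and a TPM per gene and tumor, per the file headers; TPM enters no value given here. STAR 2.7.0f, RSEM 1.3.1 and mm10 are named in the submitters' processing notes; strand setting and annotation: not given in the sources used here. For names, all 55450 gene IDs matched GENCODE M21. Totals were 33210246 to 40974153 expected counts per tumor. Expected counts, of which 6.20% to 7.19% per tumor were not whole, were rounded before testing.

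The 8 milk genes were removed, low genes were dropped with filterByExpr, libraries were scaled by TMM, and the sets were compared with edgeR 4.0.16 (R 4.3.3; quasi-likelihood, robust, Benjamini-Hochberg adjustment, threshold 0.05). The standard error is the size of the log2 fold change over the square root of F. CPM of genes outside the rule is scaled to non-milk counts with TMM factors; log2 CPM uses a prior count of 2. List levels are means of log2 CPM over members. DESeq2 1.42.0, limma 3.58.1 (voom), other filters, scalings, limits and covariates, and leaving out each tumor were alternatives. The fit was tested on simulated data. Labels put each tumor in its genotype group; milk sets come from the rule. Per the series design each tumor is from its own mouse, and on that basis the p-values measure spread between mice, for sets drawn from the same RNA.

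Named were 10 fixed genes (Prlr, Jak2, Stat5a, Stat5b, Cish, Socs2, Elf5, Cbfb, Runx1, Pik3ca), the 12 lowest p-values per direction among genes averaging at least 1 log2 CPM, and up to 3 called members of each list or else its member with the smallest p; a few genes the rule takes are not reported here. Other named genes were chosen after their values were seen: Olah, Abcg2, Pigr, Plin2, Lao1, Fabp3, Gpat4, Atp2b2, Scd1, Me1, Slc30a2, Muc1, Ltf, Trf, Thrsp, Fasn, Muc15, Slc28a3, Lpin1, Spp1, Dgat2, all uncalled genes beside the fixed and list ones, and the genes of the closing observations. The sets and lists were chosen with earlier results of these data known.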

Additional observations from a re-analysis of the deposited data

Results flagged for a closer look

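In 192 checks of single tumors against the rest of their set, 17 values stood apart by Dixon's test, where chance flags about 1 in 20. All values are log2 CPM. Cbfb(homo) 1 was apart among the milk-poor tumors for Cbfb (4.24, nearest 5.46), Scd1 (7.87, nearest 9.17), Muc1 (4.69, nearest 6.53) and Greb1 (4.25, nearest 0.94). Cbfb(het) 5 was apart among the milk-poor tumors for Xdh (7.15, nearest 7.77), Dld (6.77, nearest 6.48) and Krt6b (6.88, nearest 10.64). Other milk-poor tumors stood apart for Lao1 in Cbfb(wt) 1 (-4.19, nearest -0.04), Wdr91 in Cbfb(het) 9 (4.78, nearest 4.95) and Bhlha15 in Cbfb(het) 11 (-0.84, nearest 0.99).

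Among milk-rich tumors Cbfb(het) 8 was the highest for Gpat4 (7.63, nearest 7.18), Muc1 (8.27, nearest 8.02) and Dld (7.20, nearest 6.98). Cbfb(het) 4 was the lowest for Fam20c (5.82, nearest 7.38), Slc30a2 (3.66, nearest 5.74) and Krt6b (6.11, nearest 8.93). Cbfb(wt) 3 was the highest for Tnfrsf11a (5.93, nearest 5.43).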

How the results depend on the processing

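Against 188 higher and 54 lower genes, DESeq2 called 721 and 764, limma-voom 30 lower, voom with quality weights 290 and 114, only Cbfb(het) tumors 36 and 3, the epithelial covariate 38 and 2, the leukocyte covariate 267 lower, the continuous milk share over 13 tumors 612 and 600, a milk-poor limit of 0.5% 200 lower, and an Epcam limit of 100 CPM 28 lower. Leaving out each tumor in turn gave 74 to 204 higher and 5 to 116 lower. Leaving out Cbfb(het) 2 and Cbfb(het) 8 together, chosen after seeing the data, gave 8 and 0 by edgeR, with 2599 genes at an unadjusted p under 0.05. The causes were not tested. Limits of 3% for milk-rich or 2% for milk-poor place the same tumors. All tested of the 188 higher and 54 lower genes kept their sign in every alternative (at the fewest, 182 and 50 tested). The genes were called in these same tumors, so the kept sign is no independent check. Of 68 named genes called, 6 were called in all 27 alternatives (Slc7a5, Acsl4, Atp2c2, Ehhadh, Cel and Tnfrsf11a). Among the 28 uncalled named genes 26 values changed sign. Cbfb was 0.0024 with voom and Prlr -0.011 with quality weights. Leaving out each tumor in turn gave Prlr -0.47 to 0.98 (sign changed without Cbfb(het) 4), Greb1 -2.07 to 0.0085 (sign changed without Cbfb(homo) 1), Pik3ca -0.10 to 0.082 (sign changed without Cbfb(het) 2, Cbfb(wt) 1, Cbfb(het) 11), Jak2 -0.18 to 0.11 (sign changed without Cbfb(het) 2, Cbfb(het) 8, Cbfb(wt) 1, Cbfb(homo) 1) and Socs2 -0.87 to 0.10 (sign changed without Cbfb(het) 8, Cbfb(wt) 3, Cbfb(homo) 1). With only Cbfb(het) tumors Socs2 was 0.12, Pik3ca 0.10 and Jak2 0.14, and with the epithelial covariate 0.16, 0.11 and 0.37. Without Cbfb(het) 2 and 8 they were 0.22, 0.10 and 0.21. Socs2 was 0.018 at the Epcam limit of 100 CPM. With the leukocyte covariate Iglc2 was 0.79 and Hba-a1 0.055. No paired analysis was possible because every label carries the same repeat number and each tumor came from its own mouse.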

Other observations

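The genes in these paragraphs were chosen after their values were seen, and are given as values of the edgeR comparison. Of 5 genes picked for the pyruvate dehydrogenase complex, which turns pyruvate into acetyl-CoA in mitochondria, 4 were called higher, against 1.11% of all genes. They were picked on their values, so the count is not a result about the complex. In 3 of the 4, single tumors ended the call. Dlat, the acetyltransferase subunit, was at 93.3 ± 15.4 CPM (SD, n = 5) in the milk-rich and 49.8 ± 6.97 CPM (SD, n = 6) in the milk-poor tumors (log2 fold change 0.91 ± 0.14 (SE), adjusted p 0.0107). Pdha1 (log2 fold change 0.73 ± 0.15 (SE), adjusted p 0.0409), Pdhb (log2 fold change 1.03 ± 0.22 (SE), adjusted p 0.0454) and Dld (log2 fold change 0.50 ± 0.11 (SE), adjusted p 0.0420) were called as well, and Pdhx was not (log2 fold change 0.50 ± 0.15 (SE), adjusted p 0.107). Dlat kept its call whichever tumor was left out. Pdha1 lost it without Cbfb(het) 2, 5, 6, 8, 9, 11, Cbfb(wt) 3 or Cbfb(homo) 1 (adjusted p 0.0509 to 0.111), Pdhb without Cbfb(het) 2, 6, 8, 9, 11, 13, Cbfb(wt) 1, 3 or Cbfb(homo) 1 (0.0538 to 0.106) and Dld without Cbfb(het) 2, 4, 6, 8, 9, 11, 13, Cbfb(wt) 1, 3 or Cbfb(homo) 1 (0.0543 to 0.113). Abcd3, a peroxisomal fatty acid transporter, was called higher beside Ehhadh (log2 fold change 0.81 ± 0.14 (SE), adjusted p 0.0189). Abcd3 lost its call without Cbfb(het) 2, 8 or Cbfb(wt) 3 (adjusted p 0.0505 to 0.0622).

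A few single genes outside the lists follow. Fkbp11, a folding enzyme of the endoplasmic reticulum, was at 66.4 ± 39.2 CPM (SD, n = 5) in the milk-rich and 10.2 ± 5.17 CPM (SD, n = 6) in the milk-poor tumors (log2 fold change 2.72 ± 0.44 (SE), adjusted p 0.0146). Bhlha15, also called Mist1, a factor of secretory cells (log2 fold change 2.31 ± 0.41 (SE), adjusted p 0.0217), and Serp1, a ribosome-associated membrane protein (log2 fold change 0.73 ± 0.14 (SE), adjusted p 0.0300), were called higher. Bhlha15 lost its call without Cbfb(het) 2 or 8 (adjusted p 0.0542 to 0.0646) and Serp1 without Cbfb(het) 2, 4, 6, 8, 11 or Cbfb(homo) 1 (0.0554 to 0.0767). Fam20c, the Golgi kinase that phosphorylates caseins, was at 169 ± 72.3 CPM (SD, n = 5) in the milk-rich and 34.6 ± 12.9 CPM (SD, n = 6) in the milk-poor tumors (log2 fold change 2.30 ± 0.35 (SE), adjusted p 0.00981). Its partner Fam20a was at 293 ± 107 CPM (SD, n = 5) in the milk-rich and 41.7 ± 20.6 CPM (SD, n = 6) in the milk-poor tumors (log2 fold change 2.83 ± 0.38 (SE), adjusted p 0.00545). For both, the call held whichever tumor was left out.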
